A study of Mus musculus with 8 samples.

Results

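The genome of pro-B cells was surveyed here for the places where peaks of 5-hydroxymethylcytosine (5-hmC) lie most densely. Chromosomes 1 to 13 of the mouse were cut into 18892 fixed windows of 100 kb, and in each of 4 peak lists the bases of a window that lie under a peak were divided by all peak bases of that list. These shares were averaged over the 4 lists, and the top 2% were kept, which gave 378 windows. The values that chose the windows are the peak lists themselves, so the density of the 378 windows is described below and not tested.

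5-hmC is made from methylated cytosine by the TET enzymes and is both a step on the way to demethylation and a mark that can persist. In differentiated cells it is known to gather over the bodies and enhancers of genes in use, and in the B lineage TET2 and TET3 are known to act at enhancers of lineage genes. Pro-B cells are bone marrow progenitors in which the immunoglobulin heavy chain is being rearranged and the proteins of the pre-B cell receptor are made. HDAC7 is a class IIa histone deacetylase that acts in these cells as a transcriptional repressor.

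The peaks come from hMeDIP-seq, in which sheared DNA is pulled down with an antibody against 5-hmC and sequenced. Pro-B cells (B220+ CD43+ IgM-) were sorted from the bone marrow of C57BL/6 mice aged 4 to 6 weeks, and made into 4 libraries. The HDAC7-deficient mice (2 libraries) were *Hdac7* fl/- and their littermate controls (2 libraries) *Hdac7* +/-, called wild-type although only 1 of their copies works. Both genotypes thus share a null allele. In the deficient mice the other allele was deleted in the B lineage by Mb1-Cre, a Cre inserted at Cd79a; whether the controls carried Cre is not stated in the sources used here. The labels do not say that the libraries of a genotype came from separate mice, so p-values measure the spread between these libraries, which may be technical. The lists hold neither expression nor reads over the floxed exons, so neither the cell type nor the deletion was checked. In a bulk sample, more cells with 5-hmC at a place and more 5-hmC per cell cannot be told apart.

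A list held between 959005 and 1050099 peaks on chromosomes 1 to 13, with 171523177 to 198381844 bases under them, and gave neither height nor reads, so the depth is unknown. The lists of wild-type 1 and HDAC7-deficient 1 were more alike than any other pair. Over 18232 windows their values had a Pearson r of 0.835, against 0.691 to 0.729 for the other pairs, as a description over windows that share a genome and its base composition. HDAC7-deficient 2 stood apart outside the chromosomes used, with a mean density on chromosome X of 1.11 times the mean window of chromosomes 1 to 13, against 0.442 to 0.621 in the other libraries.

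Within a densest window the peaks of the 4 libraries met in many short stretches. Between 11 and 52 stretches per window lay under a peak in all 4 lists (median 26.0), and the longest of them measured 132 to 1103 bp. The sequences of a few are shown because they mark the places where every library placed a peak, in the leading windows and next to genes of the B lineage. They are the + strand of GRCm38 (RefSeq), the central 300 bases of the longest shared stretch, with the dinucleotide CG, the site of most cytosine methylation, in capitals.
Pde2a intron, densest window, chr7:101455327-101455626: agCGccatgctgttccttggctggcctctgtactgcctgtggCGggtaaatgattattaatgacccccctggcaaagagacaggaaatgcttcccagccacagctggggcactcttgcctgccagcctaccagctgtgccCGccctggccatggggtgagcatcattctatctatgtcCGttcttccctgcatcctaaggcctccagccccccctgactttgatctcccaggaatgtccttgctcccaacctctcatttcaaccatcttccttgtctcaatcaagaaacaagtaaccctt
upstream of Ighg1, second densest window, chr12:113338271-113338570: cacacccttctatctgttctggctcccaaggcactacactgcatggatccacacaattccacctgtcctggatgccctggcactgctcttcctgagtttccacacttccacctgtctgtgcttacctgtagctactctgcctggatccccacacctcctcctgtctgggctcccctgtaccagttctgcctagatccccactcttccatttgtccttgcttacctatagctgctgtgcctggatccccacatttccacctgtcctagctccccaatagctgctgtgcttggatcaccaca
Prex1 intron, chr2:166686946-166687245: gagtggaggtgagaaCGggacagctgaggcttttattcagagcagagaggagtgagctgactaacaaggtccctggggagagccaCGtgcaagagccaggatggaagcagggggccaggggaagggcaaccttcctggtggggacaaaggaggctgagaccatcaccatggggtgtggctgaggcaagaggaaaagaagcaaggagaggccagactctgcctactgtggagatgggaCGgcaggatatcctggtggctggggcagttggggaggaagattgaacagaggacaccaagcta
Pold1 exon beside Spib, chr7:44532982-44533281: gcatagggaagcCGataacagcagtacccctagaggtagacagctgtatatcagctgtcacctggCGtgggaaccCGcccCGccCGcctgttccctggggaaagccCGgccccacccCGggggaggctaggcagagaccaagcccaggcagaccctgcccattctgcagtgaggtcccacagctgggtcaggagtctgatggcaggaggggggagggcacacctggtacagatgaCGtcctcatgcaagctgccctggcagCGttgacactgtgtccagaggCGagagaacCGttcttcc
Irf8 intron, chr8:120751725-120752024: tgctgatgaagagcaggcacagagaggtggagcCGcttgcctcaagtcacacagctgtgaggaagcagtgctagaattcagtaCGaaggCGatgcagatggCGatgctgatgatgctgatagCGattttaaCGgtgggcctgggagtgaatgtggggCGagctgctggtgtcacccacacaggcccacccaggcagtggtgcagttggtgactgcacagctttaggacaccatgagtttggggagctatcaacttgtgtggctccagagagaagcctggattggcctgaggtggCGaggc
Aff3 intron, chr1:38658120-38658419: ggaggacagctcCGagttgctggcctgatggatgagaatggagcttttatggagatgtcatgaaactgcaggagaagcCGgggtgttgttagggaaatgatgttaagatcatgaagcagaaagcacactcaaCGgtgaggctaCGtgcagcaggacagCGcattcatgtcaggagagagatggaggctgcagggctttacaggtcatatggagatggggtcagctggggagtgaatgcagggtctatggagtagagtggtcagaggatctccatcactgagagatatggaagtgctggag
upstream of Cd22, chr7:30880976-30881275: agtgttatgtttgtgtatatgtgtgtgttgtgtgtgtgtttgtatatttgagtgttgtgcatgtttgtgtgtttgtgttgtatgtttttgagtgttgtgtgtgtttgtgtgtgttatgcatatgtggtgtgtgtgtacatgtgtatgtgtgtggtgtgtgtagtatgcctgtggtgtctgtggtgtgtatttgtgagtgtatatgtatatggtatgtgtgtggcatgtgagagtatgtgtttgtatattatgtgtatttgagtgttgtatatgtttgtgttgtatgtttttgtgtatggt

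These stretches differed in composition. The Pold1 sequence held 11 CpG in 300 bases at a GC content of 63.3%, overlapped an annotated exon, and its centre lay 1.06 kb upstream of the start of Spib, which is read from the same strand. The Irf8 sequence held 8 CpG and lay 15.5 kb downstream of the Irf8 start. The sequences at Prex1, Aff3 and Pde2a held 3, 5 and 4 CpG, at 26.7, 6.69 and 33.8 kb downstream of the starts of these genes. The sequence from the second densest window held no CpG at all. It lay 7.90 kb upstream of Ighg1 and was repetitive in itself, being the same at 72.1% of positions when shifted by 49 bp, the highest such value among the 27 longest stretches examined (the next was 54.6%). The Cd22 sequence, centred 0.783 kb upstream of the gene start, was a TG-rich repeat with 285 of 300 bases soft-masked and no CpG. Whether peaks over such sequences without CpG reflect 5-hmC was not tested, and the input libraries were not analysed.

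The mean window held 52.9 of every 1000000 peak bases of its list (52.9 ppm), and the 378 windows held 80.4 to 134 ppm (median 85.8), or 1.52 to 2.54 times the mean window. Their mean was 1.66 times the mean window (SD 0.131, n = 4 libraries), at 1.81 and 1.55 in the wild-type libraries, with 1.73 and 1.56 in the HDAC7-deficient ones. The next 2% of windows had 1.47 times the mean, and the lowest 2% of those with at least 50% of their bases known had 0.174. In none of the 4 lists did any of the 378 windows fall below that library's mean. The limit cut through a continuous slope. The last windows inside held Shb, then Psg17 with Mill2 and Pglyrp1, then Rgs10, and the first outside held Arhgap21 on chromosome 2 and windows on chromosomes 10 and 8, with 80.4 ppm on either side.

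**Figure D1:**
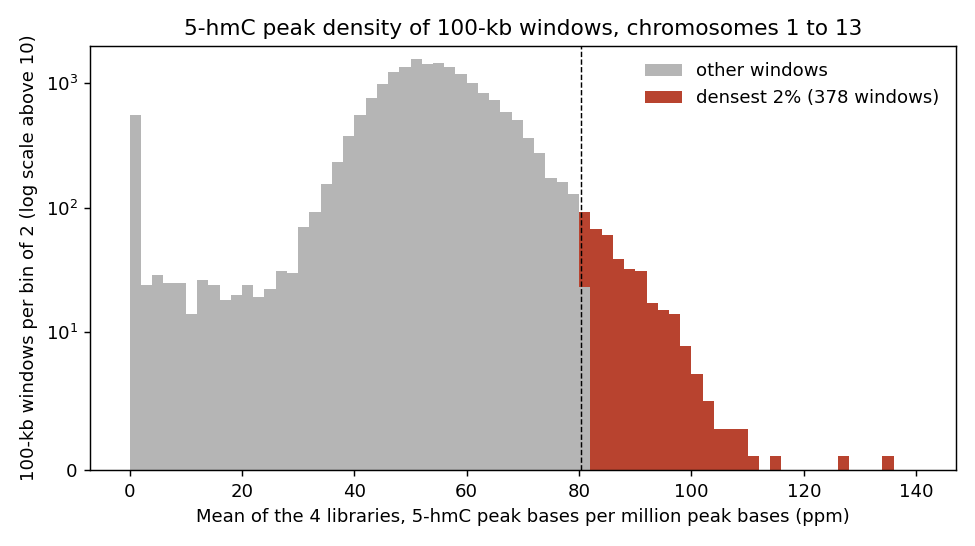
Number of 100-kb windows (vertical axis, log scale above 10) by the mean share of peak bases in the 4 libraries, in ppm and bins of 2 (horizontal axis). Red marks the 378 densest windows and the dashed line their lower limit at 80.4. Only 2 windows lie beyond 120 ppm.

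The windows held more peaks than others, and peaks of about the same width. Per window there were 89.2 and 82.2 peaks in the wild-type libraries, with 92.1 and 77.7 in the HDAC7-deficient ones, 1.47 to 1.72 times those of an average window, while the bases per peak were 1.02 to 1.04 times the average. Peaks covered 16.6% and 16.2% of the bases in wild-type cells against 15.7% and 15.5% in HDAC7-deficient cells, against 9.31% to 10.8% of all known bases.

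The densest window lay on chromosome 7 (chr7:101400001-101500000) and held Arap1, an adaptor that acts on small GTPases, and Pde2a, a cyclic nucleotide phosphodiesterase, with Mir139. Peaks covered 26764 and 22065 of its bases in wild-type cells against 25312 and 23420 in HDAC7-deficient cells, so that all libraries were high and the genotypes overlapped. The window that followed was on chromosome 12 and held immunoglobulin genes, described below. Prex1, an exchange factor for RAC, filled the window of rank 6 with 23649 and 17121 bases in wild-type cells against 19753 and 18402 in HDAC7-deficient cells. Spib, an ETS factor of the B lineage, lay in that of rank 7 beside Pold1, the catalytic subunit of DNA polymerase delta, at 23570, 17621, 21020 and 16328 bases. Irf8, a factor of B and myeloid cells, lay in that of rank 9 at 26172, 16440, 18252 and 16127 bases. Per total of peak bases, both first libraries were higher than both second libraries, whichever the genotype, in 9 of the 10 leading windows, all but that of rank 5. In bases, the same held in 6 of the 10. The other leading windows held the synaptic genes Shank1 and Syt3 with Clec11a (rank 3), Tgfb1 and Bckdha (rank 4), Katnal1 (rank 5), a stretch of the kallikrein protease cluster (rank 8), and Zfp628 with Sbk2 (rank 10). Their values ran from 16536 to 23177 bases over the 4 libraries.

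**Figure D2:**
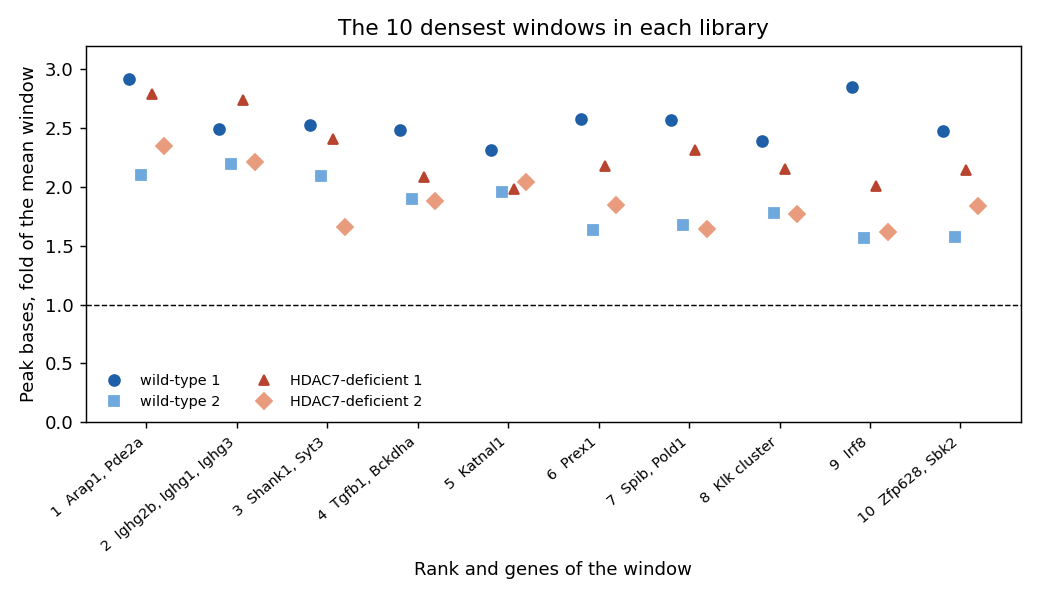
Peak bases of the 10 densest windows in each library, as the fold of the mean window (vertical axis; the dashed line is 1), with rank and genes on the horizontal axis. Blue symbols are the 2 wild-type and red symbols the 2 HDAC7-deficient libraries, and every point lies above 1.5.

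Genes of the B lineage started in these windows more often than genes at large. Of 16168 protein-coding genes on chromosomes 1 to 13, 851 started in 1 of the 378 windows, or 5.26%. Of 50 genes in 3 lists of B-lineage genes, 19 did, or 38%, each in a window of its own. The lists were written with earlier results of these data known and carry no test. Like all gene lists here, they hold only genes on chromosomes 1 to 13, so members on other chromosomes are not counted. The B-lineage genes lay in windows of only slightly higher GC content (median 45.6% against 44.5% for all protein-coding genes). In windows below 44% GC, 2 of 15 started in a densest window against 0.631% of protein-coding genes, between 44% and 48% GC 9 of 21 (42.9%) against 4.27%, and from 48% GC 8 of 14 (57.1%) against 15.6%. Outside chromosome 7, the count was 13 of 41 (31.7%) against 3.78%.

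The pre-B cell receptor and its signalling had the highest share, 8 of 13 genes. Cd79a and Cd79b, the signalling chains of the receptor, lay in windows with 1.67 and 1.72 times the mean density. The peak bases at Cd79a were 17347 and 15838 in wild-type cells against 16099 and 15036 in HDAC7-deficient cells, and at Cd79b 16825, 13963, 17544 and 17917 in the same order. Cd79a is also the site of the Cre insertion. Cd22, an inhibitory receptor, lay at 19199, 15969, 17666 and 17019 bases. Syk, the kinase that the receptor recruits, had 1.71 times the mean, the phosphatases Inpp5d and Ptpn6 had 1.69 and 1.63, and Vpreb3, a protein related to the surrogate light chain, 1.54. The members of the list that did not start in a densest window included Lyn, another receptor kinase, at 1.22 times the mean, Plcg2, the phospholipase, at 1.11, and Bank1, an adaptor, at 1.06.

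Of 23 transcription factors, 7 started in a densest window. Besides Spib (2.05 times the mean) and Irf8 (2.01) these were Bach2, a repressor of the plasma cell programme, and Aff3, a nuclear factor expressed in lymphoid cells, both at 1.71, Myb at 1.57, Ets1 at 1.54 and Id3, an inhibitor of E proteins, at 1.52. The start windows of other factors of the lineage lay lower. That of Foxo1 (1.5) was just below the limit and that of Ebf1 stood at 1.37, that of Tcf3, which encodes E2A, at 1.19 and that of Pax5 at 1.14. Within Pax5, however, a window of the gene body (chr4:44600001-44700000) was among the 378, at 1.6 times the mean and with 15493 and 13894 bases in wild-type cells against 14015 and 18432 in HDAC7-deficient cells. Foxp1, Ikzf3 and Prkcb also met a densest window away from their start, at 1.66, 1.6 and 1.74 times the mean. By overlap with the gene body, 23 of the 50 B-lineage genes (46%) met a densest window, against 6.14% of protein-coding genes. The start window of Mef2c, a factor that HDAC7 is known to bind, was below the mean window at 0.841. Among 14 surface proteins Cd37 (1.82), Fcrla (1.80), Spn, which encodes CD43 (1.58), and Bst1 (1.54) started in a densest window, and Ptprc, which encodes B220, stood at 1.35.

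**Figure D3:**
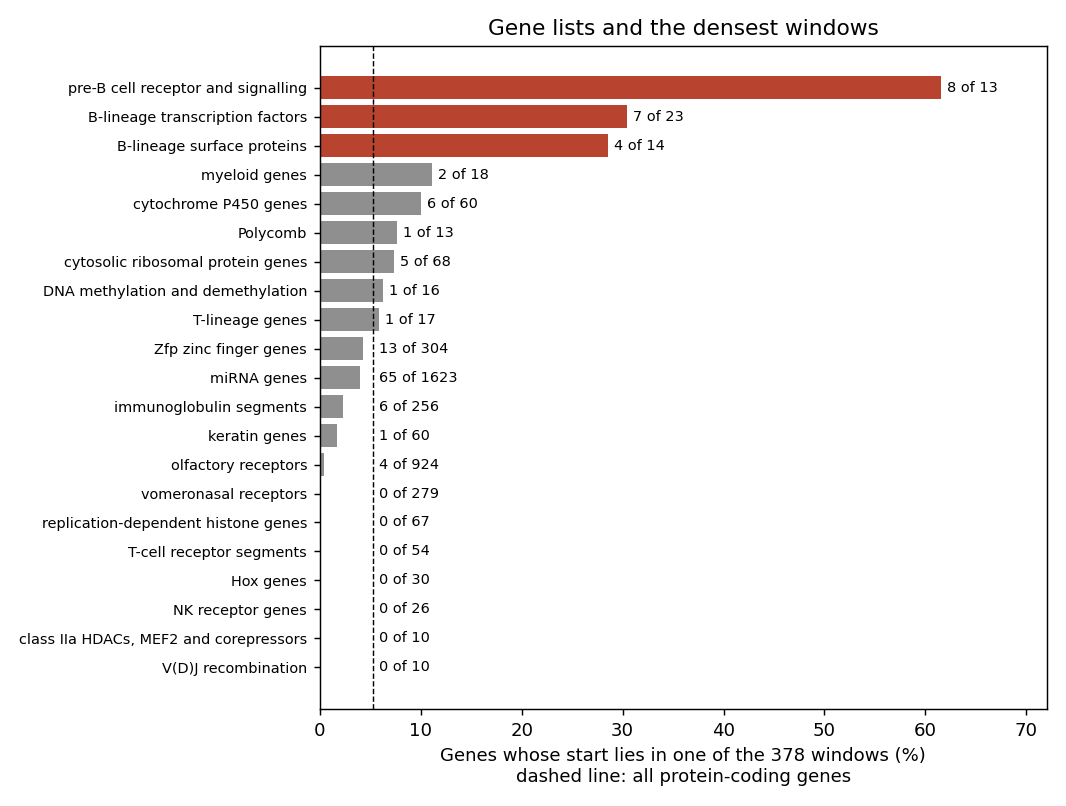
Percent of the genes of each list that start in 1 of the 378 windows (horizontal axis), with the count beside each bar and the 3 B-lineage lists in red. The dashed line is the 5.26% of all protein-coding genes, and the B-lineage lists run from 28.6% to 61.5%. For miRNA genes and gene segments, the share of all annotated genes is 3.90%.

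The shares of the other lists are read against the same 5.26% of all protein-coding genes. For miRNA genes and gene segments the fitting share is that of all annotated genes, 3.90% (1564 of 40114). None of 10 genes of V(D)J recombination started in a densest window, although Rag1 and Rag2, the recombinase genes, share the window of rank 472 at 1.49 times the mean. Of genes of other blood lineages, 1 of 17 T-lineage genes (Zap70) and 2 of 18 myeloid genes (Cd33 and Itgam) did. These counts are small, and with windows shifted by 50000 bp they were 3 and 4. The windows of these genes still ranked high. Their median percentile was 85.9 for T-lineage and 90.2 for myeloid genes, against 90.8 for the 3 B-lineage lists together. The list of DNA methylation and demethylation had Idh2 alone, 1 of 16, and Polycomb Pcgf1 alone, 1 of 13. The class IIa HDAC and MEF2 list had none of 10, the Hox genes none of 30, and replication-dependent histone genes none of 67. Of gene families in clusters, 4 of 924 olfactory receptors (0.433%) and no vomeronasal receptor of 279 started in a densest window. The olfactory receptors still had a median window percentile of 66.9, near the 62.95 of protein-coding genes, and the vomeronasal receptors 27.2. None of 26 NK receptor genes, none of 54 T-cell receptor segments and 1 of 60 keratin genes did. These lists, like those of 10 to 30 genes counted earlier in this paragraph, were too short to be set apart from 5.26% or 3.90%. Zfp zinc finger genes (13 of 304), cytosolic ribosomal protein genes (5 of 68), cytochrome P450 genes (6 of 60) and miRNA genes (65 of 1623) lay between 4.00% and 10%.

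The heavy chain locus held a sharp step. The window of rank 2 (chr12:113300001-113400000) carried the constant genes Ighg2b, Ighg1 and Ighg3, with 22919 and 23021 peak bases in wild-type cells against 24905 and 22054 in HDAC7-deficient cells, 2.41 times the mean window. The window next to it (113200001-113300000), with Igha, Ighe and Ighg2c, ranked 14 at 18550, 19845, 19840 and 17201 bases. Of 256 immunoglobulin segments, these 6 constant genes alone started in a densest window (2.34%, against 3.90% of all annotated genes). On the other side, the window with Ighm, Ighd and the J segments, the part of the locus that pro-B cells rearrange and first express, was below the mean at 0.779 times, with 7788, 8586, 6328 and 7513 bases. In every library both constant-gene windows were above the window with Ighm. The number of DNA copies in the window with Ighm was not read, and its part in the low value was not tested. The same window holds nearly all of the D segments listed. Beyond it, the next 5 windows, with the last D and the first V segments, stood between 0.965 and 1.21 times the mean. The window of rank 2 held no protein-coding start and 5.91 CpG per kb, fewer than the 7.82 of a median window.

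The densest windows formed clusters. The 378 windows made 298 runs, of which 241 were single windows, 44 had 2, 7 had 3, 4 had 4 and 2 had 6 windows in a row. A run of 6 on chromosome 7 (24800001-25400000) held Cd79a, Arhgef1, Pou2f2, which encodes the octamer factor OCT2, Rps19 and Cic, and averaged 1.85 times the mean window. The other, on chromosome 5 (111500001-112100000), overlapped no protein-coding gene and averaged 1.63. It lay next to the window with Mn1, which had 1.24, and held long non-coding RNA genes such as C130026L21Rik and Gm36535. Bach2 gave a run of 3 in which the densest window was the one before the gene. This window (chr4:32100001-32200000) carried no protein-coding gene and had 18347 and 19758 bases in wild-type cells against 18621 and 20172 in HDAC7-deficient cells, 1.99 times the mean. In the mean of the libraries, density then fell step by step over the gene, to 1.71, 1.54, 1.5 and 1.42. Of the single libraries only wild-type 1 fell at every step, from 17059 to 12995 bases over these windows. Wild-type 2 went from 13588 to 15782. HDAC7-deficient 1 and 2 ended lower (17899 to 10985 and 17049 to 15341) but did not fall at every step. Further runs covered Prex1 (4 windows), 2 blocks of kallikrein genes on chromosome 7, of which the second reached Spib, Tns1 (3 windows) and a block on chromosome 11 with Trp53, Kdm6b and Cd68 (4 windows). The genes that met the most of the windows, 3 each, were Prex1, Tns1 and Gm20388, a gene model of 4434882 bp that also spans Irf8.

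Of the 378 windows, 56 (14.8%) overlapped no protein-coding gene, and 28 of these 56 held the start of a lincRNA. Both windows of heavy chain constant genes and that before Bach2 were among them. They were of lower GC content than the 378 as a whole (median 46.6% against 47.9%) and nearly as dense (median 1.61 against 1.62 times the mean).

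Around the windows, neighbours were on the whole less dense, which the choice of the densest windows in part fixes. The 756 neighbours, counted for each window with other densest windows included, averaged 1.31 times the mean window. With the densest windows left out, which bounds the rest below the limit, the 566 distinct neighbours averaged 1.20 times, those at 200 kb 1.12, at 600 kb 1.05 and at 2000 kb 1.01. At the first step the libraries stood at 1.27 and 1.16 in wild-type cells against 1.22 and 1.14 in HDAC7-deficient cells.

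**Figure D4:**
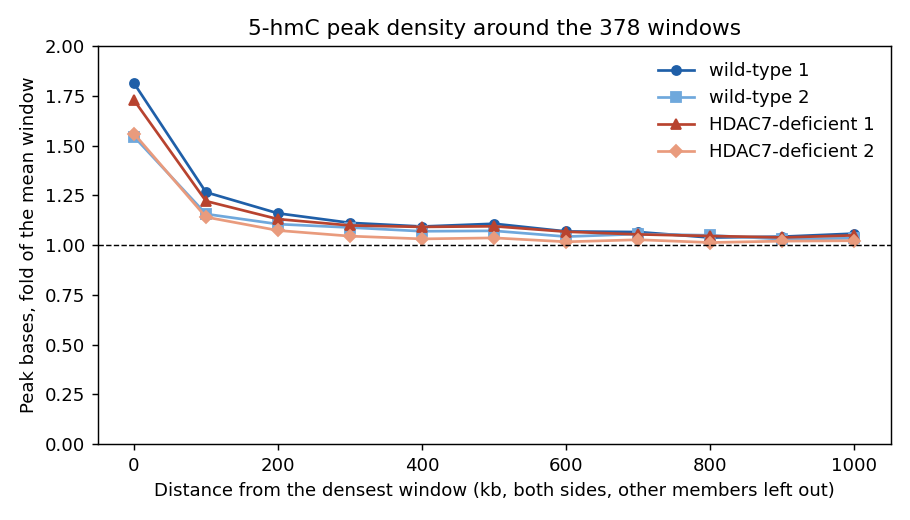
Mean peak bases, as the fold of the mean window (vertical axis), at increasing distance in kb on both sides of the 378 windows (horizontal axis), with other densest windows left out, so that no neighbour can exceed the limit in the mean of the libraries. Each line is 1 library, and from 100 kb to 1000 kb the 4 lines decline from between 1.14 and 1.27 to between 1.02 and 1.06.

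The windows were unevenly spread over chromosomes. Chromosome 7 held 76 of them, 20.1% of all and 5.34% of its windows, and chromosome 11 held 42 (3.54%). Chromosome 12 held 7 (0.599%), of which 2 were the heavy chain windows above, and chromosome 13 held 11.

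The windows were rich in GC and in genes. Their median GC content was 47.9% against 46% in the next 2%, 41.5% in all windows and 40.8% in the lowest 2%, and 13 of the 378 lay under the median of all windows. CpG per kb followed at 12.5, 11.3, 7.82 and 6.77. Repeats, as soft-masked bases, took 26.5% against 31.7% in all windows. Each window held 2.25 protein-coding starts on average against 0.876, and gene bodies covered a median of 60.5% of the bases against 34.0%. Even so, 113 windows (29.9%, against 57.5% of all windows) held no protein-coding start. Against windows of the same GC content within 2 percentage points, the median of the 378 was 1.51, 1.35, 1.47 and 1.46 times as high in wild-type 1 and 2 and HDAC7-deficient 1 and 2, a description that the choice by density fixes in direction. GC content fell with the density of peaks over these groups, as did the cover by gene bodies, to a median of 4.38% in the lowest 2%. Protein-coding starts did not follow at the low end, with a median of 1 in the lowest 2% against 0 in all windows. The part of base composition in the recovery of DNA fragments was not tested.

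Within the windows the peaks were not drawn to promoters. In the mean of the 4 lists, peaks covered 16.5% of promoter bases, 15.6% of exons, 16.6% of introns and 15.5% of the bases outside protein-coding genes, against 10.3%, 8.46%, 10.05% and 9.94% over all windows. Soft-masked bases were covered at 16.4% and the others at 15.9%, whereas over all windows the masked bases were the more covered (11.1% against 9.32%). Sequence under peaks held 13.2 CpG per kb and that between them 12.8, against 8.48 and 8.52 over all windows. Runs of CA repeats took up more bases here than in all windows (median 5.22 against 4.12 bases per kb). They were covered at 5.81% and thus less than the 16.03% of all bases. Over all windows they were also covered less, at 4.24% against 9.93%.

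Overlap between libraries is given as a description, since the windows were chosen for coverage in these lists and overlap rises with coverage. Bases under a peak in all 4 lists made up 2.53% of the windows against 1.32% of the genome examined, while 35.2% and 23.0% lay under a peak in at least 1 list. Of 54370 merged regions in the windows, 15.7% had a peak in all 4 lists, against 12.3% over all windows. A further 50.6% had a peak in a single list, against 52.9% over all windows. The Jaccard index of bases ran from 0.249 to 0.352 between lists, against 0.221 to 0.334 over all windows, and was highest for the pair of wild-type 1 and HDAC7-deficient 1 in both. As single lists, the top 2% of each held 266, 207, 278 and 206 of the 378 windows, in the order wild-type 1 and 2 and HDAC7-deficient 1 and 2. All 4 of these choices held 72 of the windows and none held 2.

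The density was also read in libraries that had no part in the choice. Windows chosen from 3 lists had 1.75 and 1.5 times the mean in the wild-type and 1.68 and 1.52 in the HDAC7-deficient list left out (mean 1.61 ± 0.123, SD, n = 4). Windows chosen from wild-type cells alone had 1.68 and 1.51 in HDAC7-deficient cells, and those chosen from HDAC7-deficient cells 1.74 and 1.48 in wild-type cells. The 2 choices shared 227 windows, 60.1% of each. Chosen from a single list, the windows held 17 and 8 of the 50 B-lineage starts in the wild-type and 17 and 12 in the HDAC7-deficient lists.

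The genotypes were compared next, a contrast over which the choice had averaged. The 378 windows took 3.63% and 3.09% of all peak bases in wild-type cells against 3.46% and 3.12% in HDAC7-deficient cells, a difference of -0.0699 percentage points (propagated SD 0.448, n = 2 per genotype; two-sided exact permutation p = 1, where the smallest p this design allows is 0.333). The sign turned without wild-type 1 (0.188) and without HDAC7-deficient 2 (0.0937). The covered share of their bases was 16.4% ± 0.298 in wild-type and 15.6% ± 0.110 in HDAC7-deficient cells (SD, n = 2 each), with no overlap and an exact permutation p of 0.333. Peaks also covered different shares of the whole genome in these lists, so this value is not free of the total.

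No single window passed the test between genotypes. In the limma test over 18232 windows, on log2 of the ppm value plus 1, 0 windows passed an adjusted p of 0.05 (0% called) and 640 had an unadjusted p under 0.05 (3.51%). Of the 378 windows, 0 passed and 5 had an unadjusted p under 0.05, or 1.32%. Both HDAC7-deficient values lay above both wild-type values in 27 of the 378 (7.14%, against 15.8% of all windows), and below in 49 (12.96%, against 14.5%). The balance turned with the library left out, with 177 higher and 64 lower without wild-type 1 and 120 and 66 without HDAC7-deficient 2. It was 39 and 218 without wild-type 2 and 52 and 172 without HDAC7-deficient 1. As shares of the 378 these were 10.3% to 46.8% higher and 16.9% to 57.7% lower. An arm of 1 list overlaps less often, and over all windows 30.7% to 34.4% were then higher and 30.4% to 34.4% lower. The log2 differences of the 378 ran from -0.46 to 0.41 with a median of -0.03, and the median over all windows was 0.00.

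**Figure D5:**
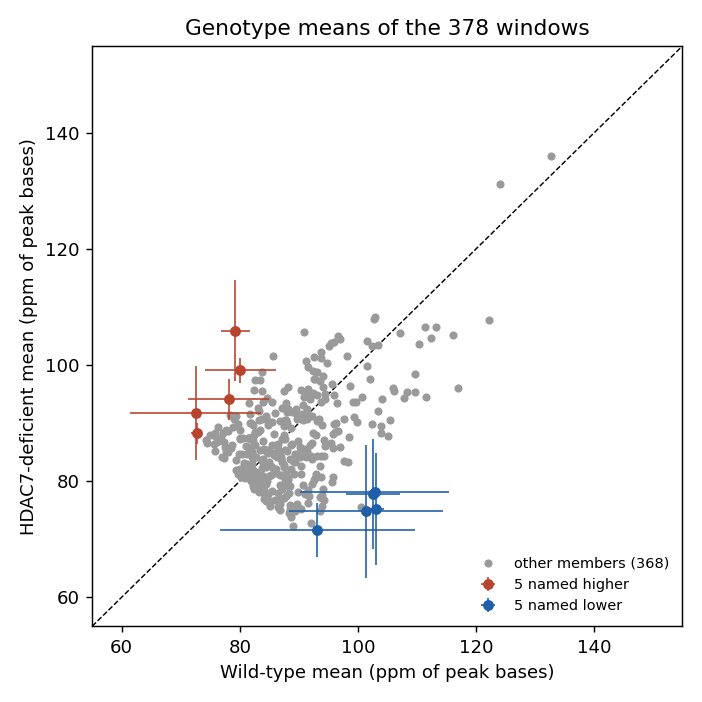
Mean share of peak bases, in ppm, of the 2 HDAC7-deficient libraries (vertical axis) against that of the 2 wild-type libraries (horizontal axis) for each of the 378 windows. Red and blue points are the 5 windows with the largest increase and decrease among those without overlap, with bars from the lower to the higher replicate, and the dashed line marks equal values.

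Of the windows with the largest differences without overlap, 8 are named for description, and each had an adjusted p of 0.999 in the limma test. The largest increase was at Muc16, a mucin gene (chr9:18500001-18600000), with 14169 and 15233 bases in wild-type cells against 19664 and 18285 in HDAC7-deficient cells, a log2 difference of 0.41 (SE 0.20). A window on chromosome 10 without a protein-coding gene (log2 difference 0.35), Nedd9, a scaffold of integrin signalling (0.31), Cecr2, a chromatin remodelling factor (0.28), and Bmf with Bub1b (0.27) followed. The largest decrease was in the chromosome 7 run next to Cd79a, in the window with Cic, Erf and Gsk3a, with 17656 and 20712 bases in wild-type cells against 14569 and 12318 in HDAC7-deficient cells, a log2 difference of -0.46 (SE 0.19). Ccr7, a chemokine receptor that guides lymphocytes to lymph nodes, had 19850 and 17514 bases against 14789 and 11917 (-0.44, SE 0.19). Smad3, a transducer of TGF-beta, had 18565 and 19453 bases against 14969 and 12847 (-0.40, SE 0.20). Most of these sizes moved with single libraries. Without wild-type 2 or wild-type 1 the log2 difference was 0.13 or 0.56 for the chromosome 10 window, 0.20 or 0.42 at Nedd9 and 0.14 or 0.39 at Bmf. Without HDAC7-deficient 2 or HDAC7-deficient 1 it was -0.28 or -0.65 at Cic, -0.22 or -0.66 at Ccr7 and -0.23 or -0.58 at Smad3. Counted as peaks in place of bases, it was 0.05 for the chromosome 10 window, 0.07 at Nedd9, 0.10 at both Cecr2 and Bmf, and -0.14 at Cic.

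None of the 19 windows with a B-lineage start passed the test either. The log2 differences ran from -0.27 at Ptpn6 to 0.25 at Cd79b with a median of 0.02, and 0 of the 19 had an unadjusted p under 0.05 in the limma test. At Ets1 and Vpreb3 both HDAC7-deficient values were below both wild-type values, 2 of 19 windows against 14.5% of all windows, and 0 of the 19 showed the reverse, against 15.8%. With standard errors of 0.18 to 0.25 on the log2 scale, differences of this size could not be detected with 2 libraries per genotype. Region by region, 1303 regions of the windows had a peak in both HDAC7-deficient lists alone (2.40%, against 2.83% over all windows) and 1392 in both wild-type lists alone (2.56%, against 2.51%). The pair of wild-type 1 and HDAC7-deficient 1, of different genotypes, had 2751 regions to itself (5.06%, against 4.72% over all windows), more than either genotype.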

How the data were processed

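The hMeDIP-seq libraries of pro-B cells, 2 per genotype, were analysed from their deposited peak lists. The authors trimmed reads (Cutadapt 1.6 within Trim Galore 0.4.2), removed duplicates with Picard 2.8.0, made an RPKM signal with deepTools and called peaks per library with MACS2 bdgpeakcall (cutoff 250, minimum length 10, maximum gap 10). The methods name bwa 0.7.12 as the aligner, the submitters' processing notes Bowtie2 and mm10. Peaks that met an input peak were removed; whether before deposit is not stated in the sources used here. The deposited files give positions alone, with no count, height or p-value. The 4 input libraries and the paper's other assays were not analysed here.

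Windows, peaks and genes were joined in pandas 2.3.3 and NumPy 2.4.6 under Python 3.11.15, and plots drawn with matplotlib 3.10.9. Sequence came from GRCm38 (RefSeq, soft-masked) and genes from GENCODE M21. No peak ended past a GRCm38 chromosome. Promoters covered 1000 bp before and 100 bp after a start. CA repeats were runs of at least 8 units. Peaks sharing at least 1 bp were merged into regions. Genotypes were compared with limma 3.58.1 in R 4.3.3 (trended variance, Benjamini-Hochberg adjustment) on log2 values with a pseudocount of 1 ppm (parts per 1000000 peak bases), over windows with a mean of at least 10 ppm. Single values were compared by exact permutation, two-sided, with all 6 assignments of the libraries. The code was tested on simulated data.

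The windows, gene lists and comparisons were chosen with earlier results of these data known. By rule the text names the 10 densest windows, 3 on either side of the limit, the 5 largest differences in each direction among windows without overlap, list genes that start in a window, and the genes that meet most windows. A few items that the rule names are not reported here. List genes that do not start in a densest window, windows within gene bodies, the heavy chain and Bach2 neighbourhoods, the splits by GC content and by chromosome, and the stretches beyond the 10 densest windows were chosen after their values were seen. Alternatives were other pseudocounts, filters, scalings, window sizes and offsets, shares of windows, peak widths and merges, a replicate block, and each library left out.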

Additional observations from a re-analysis of the deposited data

How the results depend on the processing

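The fold of the mean window stayed between 1.53 and 1.79 under its 12 alternatives, and the median GC content between 46.8% and 48.4% under the 8 run for it. The 19 B-lineage starts became 13 in the top 1% and 22 in the top 5% of windows, 17 with windows shifted by 50000 bp, and 16 to 19 with a library left out. Ranking by the number of peaks kept 266 of the 378 windows, and leaving out a library 326 to 339. T-lineage starts (1) became 3 with shifted windows, 0 in the top 1% and 4 in the top 5%, and 0 to 1 with a library left out. Myeloid starts (2) became 4, 1 and 7, then 1 with peaks of at least 200 bp, and 1 to 2 with a library left out. The genotype difference in the share of peak bases changed sign with peaks of at least 200 bp (0.0125 percentage points), without wild-type 1 (0.188) and without HDAC7-deficient 2 (0.0937), with a range of -0.354 to 0.188 over the libraries left out. Regions in all 4 lists rose to 24.8% when peaks within 100 bp were merged. Regions in both HDAC7-deficient lists alone numbered 866 with peaks of at least 200 bp. With a library left out they numbered 2871 to 9133 and those in both wild-type lists alone 2903 to 10318, since an arm of 1 list asks for fewer peaks. Of the 378, windows without overlap then numbered 39 to 177 (higher, 10.3% to 46.8%) and 64 to 218 (lower, 16.9% to 57.7%). Over all windows these shares were 30.7% to 34.4% and 30.4% to 34.4%, since an arm of 1 list overlaps less often. More of the 378 were higher than lower without wild-type 1 (177 and 64) and without HDAC7-deficient 2 (120 and 66), and the reverse without the others. In limma, 1 of all windows passed without the variance trend, and 0 to 1 with a library left out (1 without wild-type 2 and 1 without HDAC7-deficient 1, the lone library being assumed to vary like the other genotype); none of the 378 windows passed in any of these fits. The 10 windows with the largest differences kept their sign under the alternatives run, but not their size. Apart from the values given here, the cause of a change was not tested.

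Libraries of the 2 genotypes share replicate numbers. The deviations of same-numbered libraries correlated at 0.189 over windows, but with 2 pairs and no label of a shared litter or day the samples share only a number. With a replicate block, 0 windows passed and 993 had an unadjusted p under 0.05, of which 17 were among the 378. The lists carry no depth, so a window low in a library cannot be told from one covered by few reads.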

Other observations

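The same limit was read on the chromosomes that the choice left out. On chromosomes 14 to 19, 165 of 5747 windows (2.87%) passed it, and 139 when HDAC7-deficient 2 was left out. On chromosome X 5 of 1711 windows (0.292%) did, and 2 without that library. The mean density of HDAC7-deficient 2 was 1.16 times the mean window on chromosomes 14 to 19 and 1.11 on X, while wild-type 1, wild-type 2 and HDAC7-deficient 1 stood at 0.987, 0.988 and 0.984 on chromosomes 14 to 19 and 0.621, 0.608 and 0.442 on X.

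The B-lineage lists were also read at a wider limit. Of the 50 genes, 25 (50%) started in the upper 10% of all windows against 18.8% of protein-coding genes, and 3 lay below the median window. At this wider view the B lineage did not stand alone. The median window percentile was 90.8 for the 50 genes, 90.2 for the 18 myeloid and 85.9 for the 17 T-lineage genes. All protein-coding genes had 62.95.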
